A study of Mus musculus with 16 samples.

Results

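The 10 genes described here encode the AMPA receptor subunits Gria1, Gria2, Gria3 and Gria4, the NMDA receptor subunits Grin1, Grin2a and Grin2b, the AMPA receptor auxiliary subunits Cacng2 and Cacng8, and Dlg4, the scaffold protein PSD-95. They were chosen by name, as the main subunits of these receptors with their anchoring partners, out of 16934 genes in the deposited count table. All 10 were in the table, and all 10 passed the filter on low counts that left 13139 genes for testing. The study grew cortical neurons of C57BL/6 mouse embryos (embryonic day 15 to 16) for 14 days and compared 4 groups of 4 libraries. Untreated neurons were kept alone. Fibril-loaded neurons alone had taken up Atto488-labelled α-synuclein fibrils, the aggregated form of the protein that builds up in Parkinson's disease, at 0.1 µM for 16 h before a wash. Untreated co-cultures and fibril-loaded co-cultures were the same 2 kinds of neurons kept with microglia, the resident macrophages of the brain, for 6 h. The series title concerns the care of neurons by microglia through tunnelling nanotubes, thin membrane bridges between cells. The labels call every sample neurons and do not say how microglia were removed before RNA was taken, nor whether libraries of a group came from separate cultures, and each p-value therefore refers to spread among the deposited libraries, part of which may be technical.

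AMPA and NMDA receptors are the ion channels through which glutamate excites neurons. AMPA receptors are assembled from 4 kinds of subunit and carry the fast current, and the Gria2 subunit, once its RNA is edited, keeps calcium out. NMDA receptors need the obligatory Grin1 subunit together with Grin2 subunits, of which Grin2b prevails early in cortical development and Grin2a gains during maturation. Cacng2 (stargazin) and Cacng8 belong to the transmembrane AMPA receptor regulatory proteins, which bring AMPA receptors to the surface and bind PSD-95, and PSD-95 holds both receptor types in the postsynaptic density. Oligodendrocyte precursors, a glial cell present in such cultures, carry AMPA receptors as well.

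The start regions of the 4 genes on which the results turn are printed because 2 of them, Grin1 and Dlg4, fell together with microglia while Gria2 and Gria4 did not. Each is 300 bases, from 250 before to 50 after a transcript start, taken from RefSeq on GRCm38.p6 (mm10), which held windows for 6 of the 10 genes. Capitals mark GC boxes, searched as GGGCGG and, on the other strand, CCGCCC.
Grin1, chr2:25319138-25319437, minus strand: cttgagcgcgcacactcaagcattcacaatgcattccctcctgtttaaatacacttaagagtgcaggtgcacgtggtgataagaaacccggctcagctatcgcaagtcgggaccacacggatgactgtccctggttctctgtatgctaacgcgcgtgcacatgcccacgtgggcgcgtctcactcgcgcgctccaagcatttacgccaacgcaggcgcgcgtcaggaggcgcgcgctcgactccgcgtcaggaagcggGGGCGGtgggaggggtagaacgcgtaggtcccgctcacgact
Dlg4, chr11:70023732-70024031, plus strand: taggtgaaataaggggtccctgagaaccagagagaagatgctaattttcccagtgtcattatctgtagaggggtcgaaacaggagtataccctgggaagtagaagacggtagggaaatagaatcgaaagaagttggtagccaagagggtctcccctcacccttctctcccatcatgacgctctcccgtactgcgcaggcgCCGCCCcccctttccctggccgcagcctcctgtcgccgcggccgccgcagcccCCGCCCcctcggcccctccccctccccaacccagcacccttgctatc
Gria2, chr3:80802786-80803085, minus strand: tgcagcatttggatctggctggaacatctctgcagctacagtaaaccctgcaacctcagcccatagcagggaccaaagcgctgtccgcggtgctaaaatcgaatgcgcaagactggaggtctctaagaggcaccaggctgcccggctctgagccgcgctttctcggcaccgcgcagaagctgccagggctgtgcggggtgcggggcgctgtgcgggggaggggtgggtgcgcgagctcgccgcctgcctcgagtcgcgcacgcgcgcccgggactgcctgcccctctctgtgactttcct
Gria4, chr9:4796185-4796484, minus strand: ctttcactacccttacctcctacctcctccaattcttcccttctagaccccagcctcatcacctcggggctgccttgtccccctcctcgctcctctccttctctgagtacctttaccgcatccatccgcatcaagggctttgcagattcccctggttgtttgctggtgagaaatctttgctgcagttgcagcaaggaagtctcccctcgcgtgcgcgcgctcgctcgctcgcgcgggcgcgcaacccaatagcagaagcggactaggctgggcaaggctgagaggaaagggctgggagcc
The Grin1 window held 1 GC box and 33 CG dinucleotides. The Dlg4 window shown, the only Dlg4 window with a GC box, held 2 GC boxes and 16 CG dinucleotides. The windows of the 2 other Dlg4 starts held 0 GC boxes, with 5 and 12 CG dinucleotides. Which of the Dlg4 starts these cultures use was not measured. The Gria2 and Gria4 windows held 0 GC boxes, with 26 and 17 CG dinucleotides, and so did the windows of Cacng2 and Cacng8, with 20 and 2. The Cacng2 and Cacng8 windows were set on starts 748 and 75 bases away from the start of the principal annotated transcript. Of all 32851 windows, 35.7% held a GC box, and the median number of CG dinucleotides was 7. These matches describe the letters in the windows only, and no binding or methylation was measured here. The genes span chr2:25291181-25319187 (Grin1), chr11:70016942-70047522 (Dlg4), chr3:80681450-80802835 (Gria2) and chr9:4417896-4796234 (Gria4) in the GENCODE annotation of GRCm38. The antisense gene Grin1os overlaps Grin1 near its 3′ end, where these libraries collect reads, and since the strand setting of the counting is not given in the sources used here, reads of Grin1 and Grin1os may not be told apart. Grin1os, counted as a gene of its own, lay between 0 and 44.5 CPM in the libraries of neurons alone and between 0 and 27.9 CPM in the co-cultures.

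Total counts ran from 6511516 to 13986374 per library, and levels are given as CPM, the share of a library's counts after scaling by the TMM factors of edgeR. The libraries were made from 3′ ends, so counts do not grow with transcript length, but 3′ ends can be captured unequally and levels are compared between libraries rather than between genes. Neuronal markers were present in every library, with Mapt, Map2 and Syt1 the most abundant of a pan-neuronal list of 22 genes. The summed level of that list was 3082 to 13460 CPM in the 8 libraries of neurons alone and 2258 to 5017 CPM in the 8 co-cultures. The 3 lowest sums among neurons alone, 5135, 3153 and 3082 CPM, belonged to untreated replicate 1 and to fibril-loaded replicates 1 and 2. The 13 excitatory-neuron genes summed to 280.5 to 1392 CPM alone and to 144 to 449 CPM with microglia, and the 12 inhibitory-neuron genes to 124 to 408 CPM and 28.0 to 241 CPM. The 16 oligodendrocyte-lineage genes went the other way without overlap, from 1141 to 3163 CPM alone and from 4340 to 10357 CPM with microglia. The 11 astrocyte genes summed to 2469 to 8575 CPM alone and 1102 to 7621 CPM with microglia. Microglial genes, 2 of whose 15 listed members had no count in any library, stood at 4.92 to 50.4 CPM alone and at 11.4 to 1375 CPM in co-culture. The high values, 682 and 1375 CPM, came from replicate 1 of the untreated and of the fibril-loaded co-cultures. In bulk RNA of this kind, fewer cells of a type and less RNA per cell cannot be told apart.

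**Figure D1:**
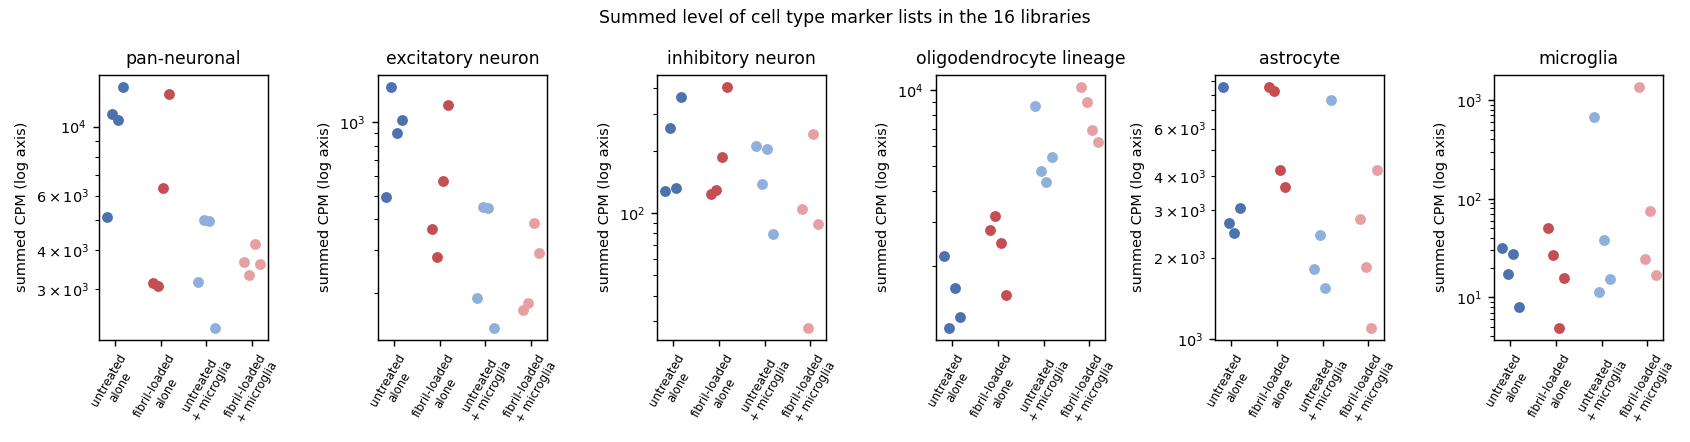
Summed CPM of 6 marker lists on log axes, 1 point per library in 4 groups. Oligodendrocyte-lineage sums of the co-cultures, 4340 to 10357 CPM, lie above those of all libraries of neurons alone, and pan-neuronal sums of the co-cultures reach 5017 CPM at most against 13460 CPM alone.

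Grin1, Grin2a and Grin2b had lower mean levels with microglia in both fibril states, and of the 3 only Grin1 passed the test. Grin1, the subunit that every NMDA receptor contains, stood at 104, 361, 319 and 191 CPM in untreated neurons alone and at 104, 95.9, 289 and 321 CPM in fibril-loaded neurons alone. With microglia it stood at 26.9, 67.0, 125 and 85.4 CPM in untreated and at 58.8, 14.8, 58.0 and 31.8 CPM in fibril-loaded neurons. In 7 of the 8 co-cultures Grin1 lay below every library of neurons alone, and the eighth, at 125 CPM, lay above 3 of the low libraries among them. Averaged over fibril state, Grin1 fell by 1.99 ± 0.38 on the log2 scale (SE), to 0.251 of its level alone (adjusted p = 0.00951, quasi-likelihood test of edgeR, adjusted over all genes by Benjamini and Hochberg). Its change was -1.68 ± 0.54 in untreated and -2.31 ± 0.55 in fibril-loaded neurons (adjusted p = 0.328 and 0.0917, same test). In the fibril-loaded libraries the Grin1 values with and without microglia did not overlap, and in the untreated ones they did. Grin2a also separated in the fibril-loaded libraries only, and Gria4 and Cacng8 in the untreated ones only. The share of all genes that separate in these comparisons was not computed, so these separations are given as description only.

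Grin2a, the subunit that gains with maturation, stood at 37.4, 170, 94.1 and 206 CPM in untreated neurons alone and at 32.3, 26.8, 36.7 and 172 CPM in fibril-loaded neurons alone. With microglia it stood at 15.9, 20.9, 52.7 and 18.1 CPM in untreated and at 7.73, 0, 17.4 and 19.1 CPM in fibril-loaded neurons. The library at 0, fibril-loaded co-culture replicate 2, allows up to 0.268 CPM, the value of 3 counts, counting error only. Again 7 of 8 co-cultures lay below every library of neurons alone. The averaged change was -2.42 ± 0.72 and missed the threshold (adjusted p = 0.0947, edgeR's quasi-likelihood test). Leaving out the library at 0 gave -2.21, which passed (adjusted p = 0.0261, same test).

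Grin2b, the subunit of the young cortex, varied widely between libraries of a group. It stood at 332, 836, 521 and 489 CPM in untreated neurons alone and at 112, 43.4, 289 and 582 CPM in fibril-loaded neurons alone. With microglia its levels were 17.4, 481, 230 and 41.0 CPM in untreated and 43.4, 48.1, 127 and 110 CPM in fibril-loaded neurons. The groups overlapped, with only 3 co-cultures below every library of neurons alone. Its averaged change of -1.57 ± 0.65 did not pass (adjusted p = 0.245, edgeR's quasi-likelihood test).

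Dlg4, whose product PSD-95 anchors these receptors, fell with microglia as Grin1 did. It stood at 123, 764, 532 and 566 CPM in untreated neurons alone and at 116, 282, 416 and 629 CPM in fibril-loaded neurons alone. Co-culture levels were 60.4, 109, 176 and 166 CPM in untreated and 152, 73.5, 104 and 190 CPM in fibril-loaded neurons. The co-cultures were uniformly low, and the overlap came from replicate 1 of both groups of neurons alone, at 123 and 116 CPM, so that 4 co-cultures lay below every library of neurons alone. The averaged change was -1.72 ± 0.37, to 0.304 of the level alone (adjusted p = 0.0189, edgeR's quasi-likelihood test). It was -1.96 ± 0.53 in untreated and -1.47 ± 0.52 in fibril-loaded neurons (adjusted p = 0.198 and 0.300, same test). The Dlg4 call was lost without the 2 libraries rich in microglial transcripts (-1.64, adjusted p = 0.0687) and without replicate 2 of the untreated co-cultures (-1.67, adjusted p = 0.0516), both by edgeR's quasi-likelihood test, while Grin1 stayed called in 24 of 24 alternatives (adjusted p up to 0.0248). Pan-neuronal and excitatory-neuron sums were lower in the same co-cultures as Grin1 and Dlg4, and the part of this shift in their fall was not tested beyond the relative levels given further on.

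**Figure D2:**
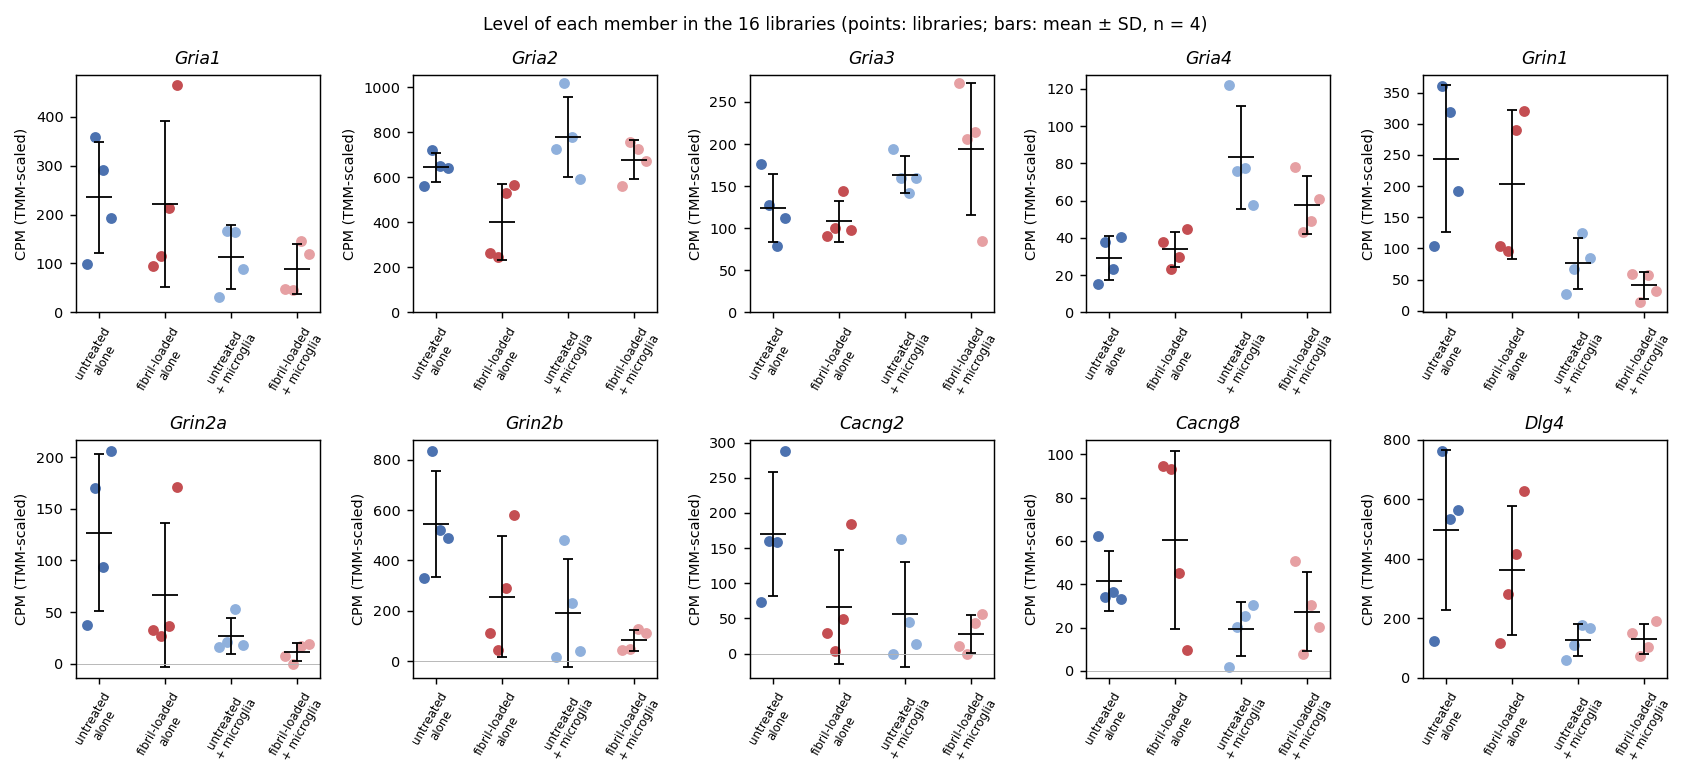
Level of each of the 10 genes in CPM (linear axes, scaled by TMM), 1 point per library and bars for mean ± SD (n = 4) in 4 groups. Grin1, Grin2a and Dlg4 sit low in both co-culture groups, Gria4 sits high in them, and Gria2 shows its lowest points, 264 and 247 CPM, in fibril-loaded neurons alone.

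AMPA receptor subunits did not move as one. Gria1, the subunit most tied to activity-dependent insertion at synapses, was lower with microglia, and Gria2, Gria3 and Gria4 were higher, though none of the 4 passed the test over all genes. Gria1 stood at 98.1, 358, 292 and 193 CPM in untreated neurons alone and at 94.9, 116, 214 and 465 CPM in fibril-loaded neurons alone. With microglia it stood at 32.4, 166, 165 and 89.3 CPM in untreated and at 47.9, 44.9, 146 and 118 CPM in fibril-loaded neurons. All 8 co-cultures lay under the median of neurons alone, 204 CPM, and 4 lay under every library of them. The averaged change of Gria1 was -1.19 ± 0.41 (adjusted p = 0.141, edgeR's quasi-likelihood test).

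Gria2, which sets the calcium permeability of the receptor, stood at 562, 720, 652 and 643 CPM in untreated neurons alone and at 264, 247, 528 and 564 CPM in fibril-loaded neurons alone. In co-culture it stood at 724, 1017, 777 and 592 CPM in untreated and at 560, 757, 725 and 671 CPM in fibril-loaded neurons. The co-culture values lay in the upper part of the range of neurons alone or above it, with 5 of 8 above every library of them. Its averaged change was 0.51 ± 0.21 (adjusted p = 0.209, edgeR's quasi-likelihood test). Gria3 ranged from 79.2 to 176 CPM alone, with a median of 106, and from 85.2 to 272 CPM with microglia, with a median of 177. Its averaged change was 0.62 ± 0.25 (adjusted p = 0.196, same test).

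Gria4, a subunit that gives fast-closing channels, was at 15.1, 37.7, 23.4 and 40.5 CPM in untreated neurons alone and at 37.5, 23.3, 29.8 and 44.5 CPM in fibril-loaded neurons alone. With microglia it was at 122, 75.7, 77.4 and 57.6 CPM in untreated and at 78.1, 43.0, 48.8 and 60.8 CPM in fibril-loaded neurons. In 7 of the 8 co-cultures Gria4 lay above every library of neurons alone, and the eighth, at 43.0 CPM, lay under the highest of them only. The averaged change was 1.14 ± 0.32, or 2.21-fold, and just missed the threshold (adjusted p = 0.0578, edgeR's quasi-likelihood test). It was 1.51 ± 0.45 in untreated and 0.77 ± 0.45 in fibril-loaded neurons (adjusted p = 0.259 and 0.539, same test). With library totals as the scaling the averaged change of Gria4 was 1.34 and passed (adjusted p = 0.0219, same test), and this scaling moved the median of all genes from -0.03 to 0.18. The oligodendrocyte-lineage list, whose most abundant genes were Olig1, Gpr17 and Olig2, was higher in the same co-cultures without overlap, and its part in the levels of Gria2, Gria3 and Gria4 was not tested.

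The auxiliary subunits varied widely between libraries of a group, and neither passed the test. Cacng2 stood at 73.8, 160, 159 and 289 CPM in untreated neurons alone and at 29.3, 3.04, 49.4 and 184 CPM in fibril-loaded neurons alone. With microglia it stood at 0, 164, 45.2 and 13.7 CPM in untreated and at 11.5, 0, 43.3 and 56.9 CPM in fibril-loaded neurons, where the libraries at 0 allow up to 0.238 and 0.268 CPM (3 counts). Untreated neurons alone were highest as a group, and every other group held a library with fewer than 4 CPM or no count at all. The averaged change of Cacng2 was -1.43 ± 1.16 (adjusted p = 0.615, edgeR's quasi-likelihood test), with an error close to the estimate in size. Cacng8 ranged from 9.59 to 94.5 CPM alone (median 40.8) and from 1.90 to 50.8 CPM with microglia (median 22.8). Its averaged change was -1.12 ± 0.52 (adjusted p = 0.289, same test).

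**Figure D3:**
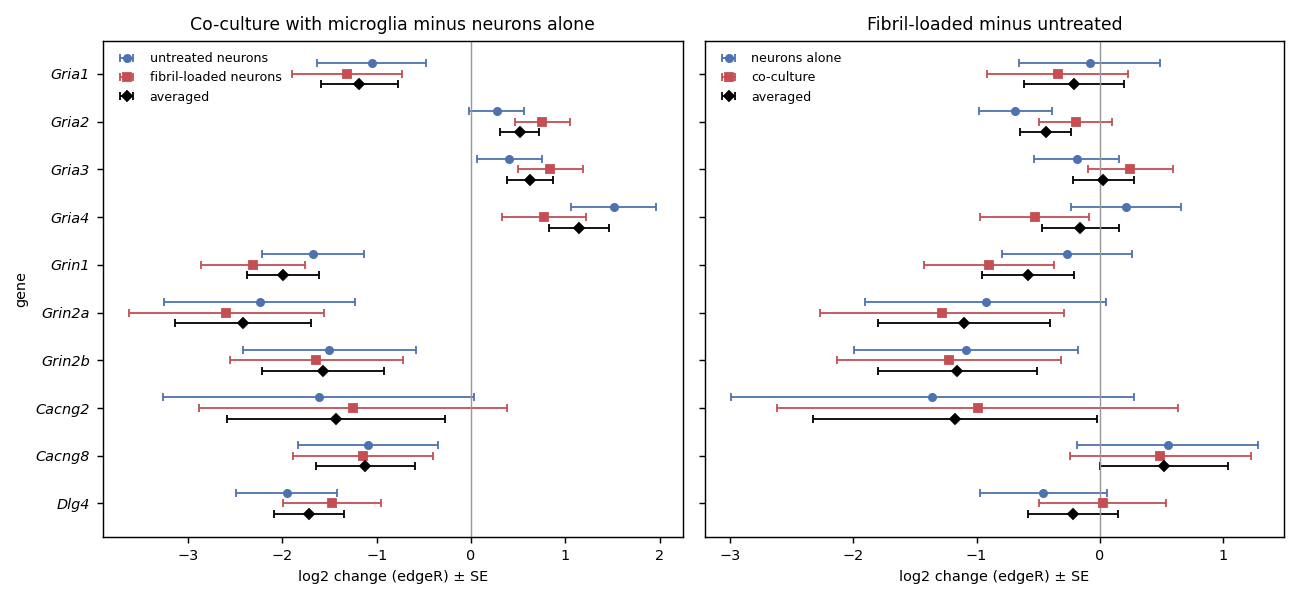
Log2 change (edgeR, ± SE) of the 10 genes with microglia (left) and with fibrils (right), within each state of the other factor and averaged. With microglia 7 genes lie left of 0 and Gria2, Gria3 and Gria4 right of it in all 3 estimates. The microglia estimates run from -2.59 to 1.51 and the fibril estimates from -1.36 to 0.55.

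Over the 10 genes, 3 were higher and 7 lower with microglia in untreated neurons, in fibril-loaded neurons and on average. On average, 2 of 10 passed the test, both lower, against 2.19% of all 13139 genes (160 higher and 128 lower). In untreated neurons 0 of 10 passed against 0.122% of all genes, and in fibril-loaded neurons 0 of 10 against 0.114%. DESeq2, which called more genes throughout, called 2 of the 10 in untreated neurons (Gria4 higher and Dlg4 lower) against 2.25% of all genes. It called 1 in fibril-loaded neurons (Grin1 lower) against 3.74%, and 5 on average against 8.33%. By edgeR, an unadjusted p under 0.05 was reached by 4 of 10 in untreated neurons against 9.1% of all genes, by 6 of 10 in fibril-loaded neurons against 11.7%, and by 9 of 10 on average against 16.5%. Cacng2 was the exception on average. The median averaged change was -1.31 over the 10 genes and -0.03 over all genes tested. None of the 10 had co-culture levels entirely outside those of neurons alone, which held for 0.601% of all genes. The average over fibril state joins the 2 microglia comparisons, which share no library, and no difference between them passed: interaction estimates ran from -0.74 (Gria4) to 0.49 (Gria2), with 0 of 10 and 0.0% of all genes called (529 genes had an unadjusted p under 0.05 and DESeq2 called 187, or 1.42%, none of the 10 among them).

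Fibrils alone moved none of the 10 genes past the threshold. In neurons without microglia, Gria2 was at 644 ± 64.7 CPM untreated and at 401 ± 169 CPM fibril-loaded (SD, n = 4 each), a change of -0.68 ± 0.29 (unadjusted p = 0.0295, adjusted p = 0.695, edgeR's quasi-likelihood test). Replicates 1 and 2 of the loaded neurons were lowest, and replicate 3 also lay below every untreated library. Replicates 1 and 2 were also the libraries with the lowest pan-neuronal sums among neurons alone, and the part of that in the Gria2 level was not tested. Cacng2, Grin2b and Grin2a had the lowest estimates, -1.36 ± 1.63, -1.08 ± 0.91 and -0.93 ± 0.98, each with a standard error about as wide as the estimate. Cacng8 was the highest at 0.55 ± 0.73, and Gria1, Gria3, Gria4 and Grin1 lay between -0.27 and 0.21. In co-culture, Grin1 was at 76.1 ± 40.9 CPM untreated and 40.9 ± 21.4 CPM loaded (change -0.90 ± 0.53), while Dlg4 was at 128 ± 53.8 and 130 ± 51.4 CPM (change 0.02 ± 0.51). Averaged over both, Gria2 had -0.44 ± 0.21 (unadjusted p = 0.0450, adjusted p = 0.749, same test). In each of these 3 fibril comparisons 0 of 10 passed and 0.0% of all genes did. Among all genes, 909 in neurons alone, 483 in co-culture and 870 on average had an unadjusted p under 0.05, which is 6.92%, 3.68% and 6.62% of them. DESeq2 called 173, 130 and 257 genes (1.32%, 0.989% and 1.96%), none of the 10 among them.

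With microglia the mean share of Gria1 among AMPA receptor transcripts was lower in both fibril states, and those of Gria2, Gria3 and Gria4 were higher. Gria1 made up 21.9% ± 8.09 of the 4 summed subunits in untreated neurons alone and 26.6% ± 8.95 in fibril-loaded neurons alone (SD, n = 4 each). In co-culture it made up 9.73% ± 4.81 in untreated and 8.70% ± 4.70 in fibril-loaded neurons. The share of Gria2 was 62.8% ± 3.60 and 52.7% ± 4.11 alone and 68.0% ± 2.54 and 66.5% ± 6.58 with microglia. Gria3 took 12.5% ± 5.70 and 15.8% ± 5.34 alone, and 14.8% ± 3.59 and 19.0% ± 7.90 with microglia. Gria4 took 2.78% ± 1.02 and 4.89% ± 1.98 alone, and 7.46% ± 2.69 and 5.76% ± 1.93 with microglia. The sum of the 4 subunits differed less, at 1032 ± 162 and 765 ± 338 CPM alone and 1137 ± 217 and 1019 ± 91.1 CPM with microglia. These shares rest on 3′ counts of each gene and are read between libraries only.

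As a ratio, log2 of Gria1 over Gria2 (each CPM plus 2) was -2.49, -1.01, -1.15 and -1.72 in untreated neurons alone and -1.46, -1.08, -1.30 and -0.28 in fibril-loaded ones. It was -4.40, -2.60, -2.22 and -2.70 in untreated and -3.49, -4.02, -2.30 and -2.48 in fibril-loaded co-cultures. Untreated replicate 1 was the one library of neurons alone that reached into the co-culture range, and 5 of 8 co-cultures lay below it. The averaged difference was -1.71 (exact permutation test within fibril state, two-sided, p = 0.000816, adjusted p = 0.00571 over the 7 ratios tested). Within untreated and within fibril-loaded neurons it was -1.39 and -2.04 (exact permutation p = 0.0571 and 0.0286, the latter the smallest that 4 against 4 libraries can give). The ratio stayed past the threshold in 18 of 18 alternatives, between -1.86 and -1.41. Gria4 over Gria2 was 1.24 higher with microglia in untreated neurons and -0.11 in loaded ones (exact permutation p = 0.0286 and 0.800), with an average of 0.57 that did not pass (exact permutation p = 0.0935, adjusted p = 0.327 over the 7 ratios). The other 5 ratios did not pass either: Gria3 over Gria2 differed by 0.04, Dlg4 over Grin1 by 0.41, Cacng8 over Cacng2 by 0.81, Grin1 over Grin2b by -0.16 and Grin2a over Grin2b by -0.45 (exact permutation p from 0.209 to 0.883). No ratio passed for fibrils.

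**Figure D4:**
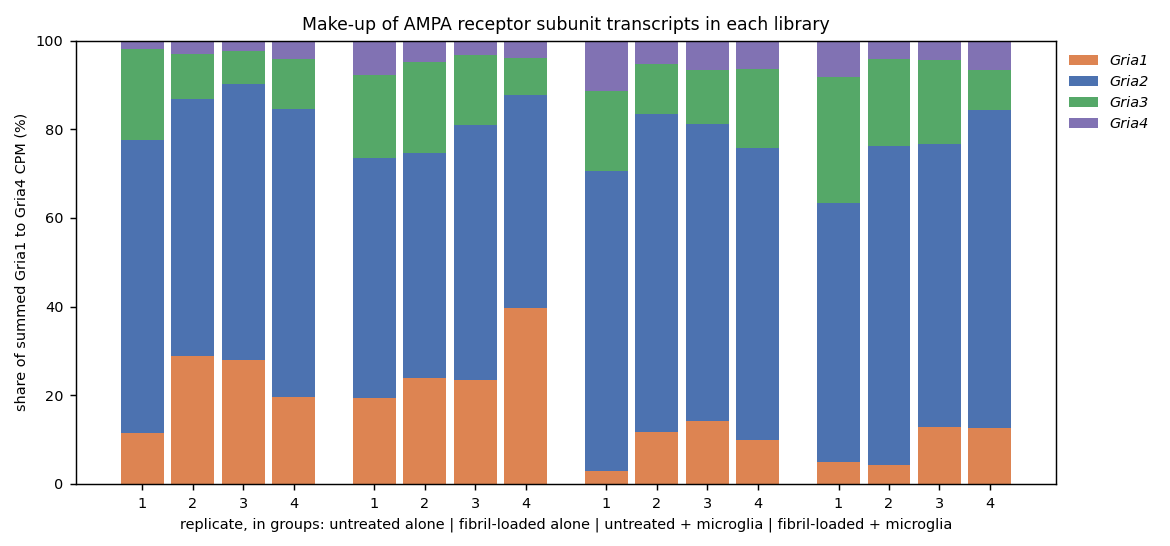
Share of each subunit in the summed CPM of Gria1 to Gria4, 1 bar per library in 4 groups of 4 replicates, on an axis from 0 to 100%. The Gria1 segment averages 21.9% and 26.6% in neurons alone and 9.73% and 8.70% in co-cultures.

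Since pan-neuronal transcripts were lower in co-culture, each gene was also set against their summed level, as log2(CPM + 2) minus log2 of the summed CPM + 2. On this measure 88.3% of all genes were higher with microglia on average, with a median of 0.92, against which each value is read. Gria2 was 1.49 higher, with all 8 co-cultures (-2.71 to -1.93) above all 8 libraries of neurons alone (-4.49 to -3.19). Such a separation held for 1 of the 10 genes and for 1.26% of all genes. Its exact permutation p of 0.000408 is the smallest the design can give (adjusted p = 0.0163 over all genes). Gria3 was 1.54 higher and Gria4 2.06 higher (exact permutation p = 0.00449 and 0.000816, adjusted p = 0.0392 and 0.0205 over all genes). Thus 3 of 10 were called higher where 15.4% of all genes were, and they lay at percentiles 78.9, 80.5 and 92.9 of all genes.

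Grin2a was the 1 of 10 called lower, where 0.365% of all genes were (change -1.30, exact permutation p = 0.00449, adjusted p = 0.0392 over all genes). Grin1 differed by -1.01 and Dlg4 by -0.60 relative to pan-neuronal transcripts, and neither passed (exact permutation p = 0.0208 and 0.0914, adjusted p = 0.0810 and 0.196). Grin1 lay at percentile 1.55 of all genes, Cacng2 at 1.58, Grin2b at 2.15 and Dlg4 at 3.69. Grin2b (-0.85), Gria1 (-0.22), Cacng8 (-0.19) and Cacng2 did not pass either (exact permutation p from 0.113 to 0.807). Without the 2 libraries rich in microglial transcripts all 4 calls were lost (adjusted p 0.0516 for Gria2, 0.0907 for Gria3, 0.0553 for Gria4 and 0.0823 for Grin2a) with values of 1.51, 1.36, 1.85 and -1.25. Leaving out these libraries also leaves fewer arrangements to the permutation and raises the smallest p it can give. The part of this in the lost calls was not tested. Gria2 and Gria4 were called in 18 of 19 alternatives each, Gria3 in 7 and Grin2a in 5. Without the library that had no Grin2a count, Grin2a differed by -0.95 and did not pass (exact permutation, adjusted p = 0.0648 over all genes). Set against the excitatory-neuron list it differed by -0.86 and did not pass either (same test, adjusted p = 0.0626). For fibrils none of the 10 passed on this measure. In neurons alone Gria4 differed by 1.09 and Cacng2 by -1.31 with no overlap between loaded and untreated libraries. Both had an exact permutation p of 0.0286, the smallest that 4 against 4 libraries can give (adjusted p = 0.647 over all genes). That unadjusted p was reached by 2 of 10 and by 2.13% of all genes. In this comparison 81.8% of all genes were higher, with a median of 0.76, and Gria4 lay at percentile 66.5 and Cacng2 at 1.02. The gaps were narrow. Gria4 reached -8.11 at most untreated and -8.09 at least loaded, and Cacng2 -6.087 at least untreated and -6.095 at most loaded.

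**Figure D5:**
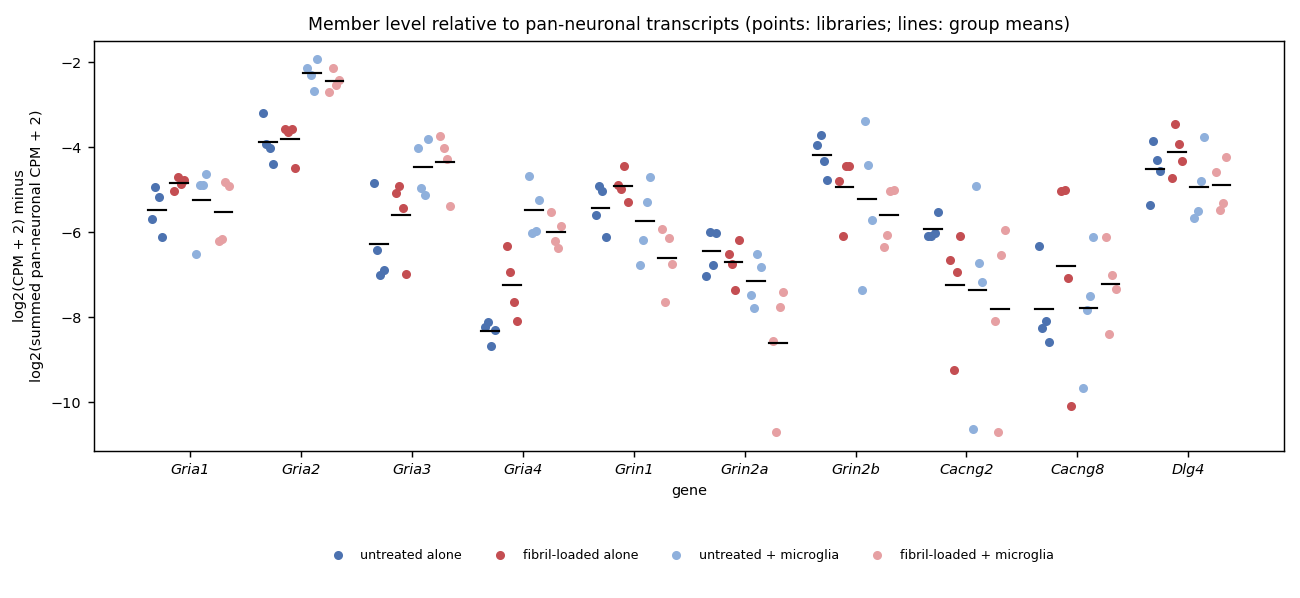
Level of each gene relative to summed pan-neuronal transcripts (log2 scale), 1 point per library and lines for group means. Co-culture points of Gria2 (-2.71 to -1.93) lie above those of neurons alone (-4.49 to -3.19), and the fibril-loaded co-cultures hold the lowest point of Grin2a, -10.7, from the library with no Grin2a count.

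Of 71 further genes of glutamate receptors and the postsynaptic density, 69 were in the table and 68 were tested. On average 29 were higher and 39 lower with microglia, and 2 passed the test upward and 1 downward, against 2.19% of all genes. An unadjusted p under 0.05 was reached by 20 of the 68 and by 16.5% of all genes, the share to set beside the counts by list that follow. Cacng4, another AMPA receptor regulatory protein of the family of Cacng2 and Cacng8, stood at 162 ± 45.9 and 173 ± 81.9 CPM in untreated and fibril-loaded neurons alone. With microglia it stood at 603 ± 180 and 584 ± 109 CPM (SD, n = 4 in every group). Its averaged change was 1.82 ± 0.24 (adjusted p = 0.000385, edgeR's quasi-likelihood test), opposite in sign to Cacng2 and Cacng8. Grin3a, a subunit that lowers the calcium flow of NMDA receptors, rose from 20.2 ± 11.4 and 25.7 ± 15.8 CPM to 77.6 ± 47.6 and 90.1 ± 13.1 CPM (averaged change 1.88 ± 0.43, adjusted p = 0.0208, same test), opposite in sign to Grin1, Grin2a and Grin2b. Olfm1, a secreted protein found with AMPA receptor complexes, fell by 1.49 ± 0.35 (adjusted p = 0.0287, same test). Cacng4 was also the 1 gene of these lists that passed in untreated and in fibril-loaded neurons separately. Oligodendrocyte-lineage sums were higher in the same co-cultures without overlap, and their part in the levels of Cacng4 and Grin3a was not tested. The list of further AMPA receptor auxiliary and assembly proteins, Cacng4 and Olfm1 included, split into 5 higher and 10 lower, with 4 of 15 under an unadjusted p of 0.05. The 3 other NMDA receptor subunits tested, Grin3a included, split into 1 higher and 2 lower, with 2 of 3 under an unadjusted p of 0.05.

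Kainate and delta receptor subunits and their partners were higher in 8 of 9, with 0 passing and 1 under an unadjusted p of 0.05, among them Neto2 (0.77 ± 0.42) but not Grik5 (-0.11 ± 0.49). Metabotropic receptors split into 4 higher and 3 lower with 0 passing, and the most abundant, Grm5, changed by 0.14 ± 0.34. Other scaffolds and signalling partners were lower in 11 of 14, with 0 passing and 8 under an unadjusted p of 0.05. Dlgap1 and Dlgap4, which bind PSD-95 and were the most abundant of them, had changes of 0.26 ± 0.22 and -0.32 ± 0.23 against -1.72 for Dlg4 itself. Trafficking and anchoring proteins were lower in 9 of 10 with 0 passing, among them Nsf, an ATPase that binds Gria2 (-1.39 ± 0.47, adjusted p = 0.137, edgeR's quasi-likelihood test), and Epb41l1 (-0.79 ± 0.38). Adhesion and clustering proteins were higher in 7 of 10 with 0 passing, among them the neuroligins Nlgn1 (0.66 ± 0.24) and Nlgn2 (0.30 ± 0.28), and 3 had an unadjusted p under 0.05. For fibrils, 0 of the 68 passed in neurons alone, in co-culture or on average, with 5, 2 and 4 under an unadjusted p of 0.05, where 6.92%, 3.68% and 6.62% of all genes were.

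Among themselves the 10 genes fell into profiles that followed receptor make-up only in part. The likeness of 2 genes was taken as the root mean square distance of their log2 CPM, centred on each gene's mean, over the 16 libraries, which share depth and cell mix. Gria2 and Gria3 were the closest pair (0.57), followed by Gria1 with Dlg4 (0.62), Grin1 with Dlg4 (0.65), Gria2 with Gria4 (0.68) and Gria1 with Grin1 (0.70). Gria1 was thus nearer to Dlg4 and Grin1 than to Gria2 (1.12). Cacng2 was far from every other gene of the 10, at 1.86 from its nearest, Grin2b. The Cacng2 libraries with no count enter at a log2 CPM of -2.26, and a gene's own spread enters the distance as well. The part of these in the Cacng2 distances was not tested. Among 6472 genes with a mean log2 CPM above 4, those nearest to Grin1 were Prkar1b (0.54) and Pde2a (0.54), where the median gene lay at 1.53. Nearest to Dlg4 were Nsmf (0.43) and Ppp3r1 (0.47; median 1.36), and nearest to Grin2b were Meg3 (0.52) and Arpp21 (0.60; median 1.81). Nearest to Gria4 were Hnrnpr (0.41) and Brd8 (0.45; median 1.08).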

How the data were processed

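RNA of 16 libraries was measured, 4 in each of 4 groups taken from the treatment label. Libraries were made with the QuantSeq forward 3′ kit, per the labels' protocols. STAR, Partek, DESeq2 and mm10 are named in the submitters' processing notes without versions; the counting tool, its strand setting and any molecular identifiers are not given in the sources used here. Raw gene counts without normalization, for 16934 symbols, are what the authors deposited. Another deposited table gives a score, normalized by the authors and kept as whole numbers, of which 99.99% lay within 0.6 of the count times a constant per library. Total counts were 6511516 to 13986374, of which 9.35% to 26.8% came from the ribosomal transcript Rn45s. Intervals and floors from counts cover counting error only, since PCR copies of one molecule are not independent.

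The counts went into edgeR 4.0.16 (R 4.3.3), where filterByExpr (minimum count 10, minimum total 15) left 13139 genes. After TMM scaling, a robust quasi-likelihood fit of all 16 libraries gave each group its mean, and contrasts compared those means. The biological coefficient of variation was 1.17. Standard errors of log2 changes were derived from the test, as the size of the change divided by the square root of its quasi-likelihood F statistic. Calls needed an adjusted p (Benjamini-Hochberg, over all genes of the contrast) under 0.05. Log2 CPM used a prior count of 2, and ratios and relative levels a pseudocount of 2 CPM. These were compared by exact two-sided permutation of libraries (70 arrangements within a fibril state, 4900 for an average). Relative levels were adjusted over all 13139 genes, although the plan had been to adjust over the 10 genes, and ratios over the 7 formed. Alternatives were other scalings, no filter, the groups of a contrast alone, a replicate block, DESeq2 1.42.0, limma 3.58.1 both as voom and on the deposited normalized values (pseudocount 1), leaving out libraries, another pseudocount and another neuronal reference list. The calls of the edgeR model were tested on simulated counts. Python 3.11.15 with pandas 2.3.3, numpy 2.4.6 and matplotlib 3.10.9 did the rest.

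The 10 genes, the further lists and the contrasts were chosen with earlier results of these data known. Named besides the 10 were list genes called in an averaged contrast (at most 6 a list), uncalled genes among the 2 most abundant of a list, the 2 genes nearest in profile to Grin1, Dlg4, Gria2, Gria4 and Grin2b (those of Gria2 are not reported here), and the 3 most abundant genes of marker lists; Grin2c, also named by this rule, had a mean log2 CPM of -0.24 and a change of -4.55 ± 2.11, and Grm7 of -0.63 ± 1.04. Vascular and fibroblast markers, 9 of 11 in the table, summed to at most 26.8 CPM in any library.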

Additional observations from a re-analysis of the deposited data

Results flagged for a closer look

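In 40 sets of 4 libraries (10 genes in 4 groups), the highest or lowest library stood apart from its group in 3, by Dixon's criterion at a gap of over 0.829 of the range; chance gives about 1 in 20 sets. Grin2a had a log2 CPM of 7.42 in replicate 4 of the fibril-loaded neurons alone, against 4.76 to 5.20 in the others of that group, a library that also had the highest pan-neuronal sum of its group. Cacng8 had a log2 CPM of 5.96 in replicate 1 of the untreated neurons alone, against 5.07 to 5.19. Cacng8 had a log2 CPM of 1.08 in replicate 1 of the untreated co-cultures, against 4.35 to 4.94, and this library was 1 of the 2 rich in microglial transcripts.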

How the results depend on the processing

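In the averaged microglia comparison no gene of the 10 changed sign in 24 alternatives. Grin1 was called in 24 of them (-2.17 to -1.83) and Dlg4 in 22 (-1.88 to -1.51). The count of the 10 called, 2 in the averaged comparison, was 5 with DESeq2 (1 higher, 4 lower), 4 with limma on the authors' normalized values, and 1 without both libraries rich in microglial transcripts; leaving out 1 library at a time gave 1 to 3. In untreated neurons the count was 0, and 2 with DESeq2, with 0 to 1 on leaving out 1 library (1 without replicate 1 of the untreated neurons alone, Dlg4 at -2.28). In fibril-loaded neurons it was 0, and 1 with DESeq2. For fibrils and for the interaction it was 0 under every alternative run. The cause of these shifts was not tested. Further genes passed under single alternatives: Gria1 with DESeq2 and the replicate block, Gria4 with library totals, DESeq2 and limma on the authors' normalized values, Grin2a with DESeq2, limma on the authors' normalized values and without 1 library, and Grin2b with limma-voom. Of 1720 log2 changes recomputed under alternatives, 1654 kept their direction and side of the threshold, 51 uncalled ones changed sign, 13 gained a call and 2 lost it. Over all genes the averaged comparison called 288 genes, but 1094 with DESeq2, 662 with limma-voom, 480 with limma on the authors' normalized values and 152 without both libraries rich in microglial transcripts; with library totals 339 of 422 were higher. Replicate numbers follow runs of library codes and are not said to pair samples. Libraries sharing a number deviated together little (24 pairs, correlation -0.111 to 0.217, median 0.0434, against -0.0126 for 72 other pairs). A correlation above 0.1 was reached by 4 of the 24 pairs and by 4 of the 72. The main fit had no replicate block, which was kept as an alternative. With the block 366 genes were called in the averaged comparison, against 288, and 38 and 42 in the separate ones, against 16 and 15. Of the 10 genes it called 3 in the average. The groups of a contrast alone could not be run for averaged comparisons.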
